A study of Mus musculus with 16 samples.

Results

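The genes described here are 10 enzymes of glycolysis, taken as the rows of the deposited tables whose gene symbol is Hk1, Hk2, Gpi1, Pfkl, Pfkp, Aldoa, Tpi1, Pgk1, Pgam1 or Eno1. They are 10 of 22096 gene symbols, they come from 13 annotated transcripts, and all 10 passed the filter on low values (10550 genes with a mean of at least 1 FPKM were tested). The members were chosen by their FPKM in 12/- against the other genotypes, as an earlier reading of these data showed them, so every 12/- value of a member below, counts of calls included, is a description that supports nothing. Tests of members are read only in comparisons among the other genotypes.

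The study measured RNA by sequencing in endothelial cells sorted with an antibody to CD31 from whole mouse embryos at embryonic day 9.5, in 16 libraries of 6 Notch1 genotypes. In 12/- embryos (3 libraries) one Notch1 allele was deleted and the other, named 12, carried the intracellular domain (NICD) of Notch2 in place of its own. The 12/vg embryos (1 library) carried the 12 allele beside vg, an allele with the V1744G substitution, which yields a less stable intracellular fragment. The +/12, +/- and +/vg embryos (3 libraries each) each kept one wild-type allele, and +/+ embryos (3 libraries) had both. According to the labels endothelial function was impaired in 12/-, partly impaired in 12/vg, and development was normal in the remaining 4 genotypes, called normal genotypes below. The labels name no tissue-specific driver for any allele, and none states if a library held 1 embryo or a pool. The error terms below are thus the variation from library to library, part of which can be technical. The wild-type label was spelled in 2 ways, and the 3 libraries were taken as 1 group.

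Glycolysis splits a molecule of glucose into a pair of pyruvate molecules and yields ATP without using oxygen. Its upper part, run by hexokinase, glucose-6-phosphate isomerase, phosphofructokinase and aldolase, spends ATP and ends in triose phosphates. Its lower part, run by triosephosphate isomerase, glyceraldehyde-3-phosphate dehydrogenase, phosphoglycerate kinase, phosphoglycerate mutase, enolase and pyruvate kinase, returns ATP. Endothelial cells are known to draw much of their ATP from this pathway, and the genes of several of its enzymes are textbook targets of the hypoxia-inducible factors, which bind a short core element in DNA.

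Levels are in FPKM (fragments per unit of transcript length and of library depth), summed over the transcripts of a gene and scaled so that the median gene was equal between libraries. The files hold no read counts, but the ratio of their coverage to their FPKM column gives the aligned bases of each library. It was 0.189 gigabases in +/- replicate 2 and 0.262 in the 12/vg library, against 1.11 to 1.80 in the other 14, so values of those 2 shallow libraries carry more counting error. Library numbers in the deposited file names fall into a low range (9 libraries, all of 12/-, 12/vg and +/12 and replicate 3 of +/- and +/vg) and a high range (7 libraries, all of +/+ among them). What the numbers stand for is not given. The targeted gene, Notch1, lay at 15.4 to 19.7 scaled FPKM in 12/- libraries, 15.4 in 12/vg and 14.5 to 23.3 in normal libraries, and a sum over transcripts does not check a partly exchanged allele. Notch2 lay at 3.39 to 4.37 in 12/-, 4.28 in 12/vg and 3.89 to 4.40 in +/12, against 2.10 to 3.41 in the genotypes without a 12 allele, where the highest value came from the shallow +/- replicate 2. The sorted cells expressed endothelial genes in every library: Pecam1, which encodes CD31, lay between 46.1 and 89.2 scaled FPKM, Cdh5 between 149 and 243, and Kdr between 65.0 and 104, with Pecam1 higher in 12/- than in any normal library.

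The promoters of the 4 members with the largest 12/- difference from the normal genotypes, taking Eno1 from its own record alone, are shown because the hypoxia-inducible factors are known to bind their core element in promoters of glycolytic genes. Each is the 250 bases before the annotated start (RefSeq, GRCm38.p6, transcribed strand, 5′ to 3′). Capitals mark the core element, searched as ACGTG or GCGTG on both strands, so that CACGT and CACGC are its reverse; ACGTG can also be part of the longer E-box CACGTG.
Tpi1, chr6:124814159-124814408, minus strand: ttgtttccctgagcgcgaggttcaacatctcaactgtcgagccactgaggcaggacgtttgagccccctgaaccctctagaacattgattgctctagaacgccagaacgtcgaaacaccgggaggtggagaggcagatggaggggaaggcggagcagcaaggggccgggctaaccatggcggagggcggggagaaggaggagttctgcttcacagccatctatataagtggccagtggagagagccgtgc
Pgk1, chrX:106186850-106187099, plus strand: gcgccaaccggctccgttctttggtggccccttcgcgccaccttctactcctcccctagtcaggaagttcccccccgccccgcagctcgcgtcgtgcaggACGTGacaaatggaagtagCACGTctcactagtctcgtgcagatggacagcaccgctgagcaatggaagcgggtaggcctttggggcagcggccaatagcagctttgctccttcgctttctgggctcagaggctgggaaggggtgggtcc
Pfkp, chr13:6648772-6649021, minus strand: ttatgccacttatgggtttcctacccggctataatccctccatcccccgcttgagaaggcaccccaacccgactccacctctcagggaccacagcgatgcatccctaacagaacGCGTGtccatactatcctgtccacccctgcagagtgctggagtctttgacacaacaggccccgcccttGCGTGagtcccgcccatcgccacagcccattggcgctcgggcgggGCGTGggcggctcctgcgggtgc
Pfkl, chr10:78009808-78010057, minus strand: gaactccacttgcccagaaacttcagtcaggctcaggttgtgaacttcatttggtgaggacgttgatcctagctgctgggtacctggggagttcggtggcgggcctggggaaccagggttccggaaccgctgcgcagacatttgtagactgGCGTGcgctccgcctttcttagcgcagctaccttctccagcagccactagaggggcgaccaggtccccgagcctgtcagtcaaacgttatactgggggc
Tpi1 had 0 matches in this window, Pgk1 had 2, Pfkp had 3 and Pfkl had 1. Over all 10 members, which have 15 annotated start windows, 11 windows (73.3%) held at least 1 match, as did at least 1 window of 8 genes (80.0%). Some windows of Eno1 and of Aldoa overlap and share their matches, so the share of windows counts the same bases more than 1 time. Of all 32851 such windows in the mouse annotation 38.6% held a match, and of all 27025 genes 41.5% did. The members' windows were richer in G and C, with a median of 62.8% against 52.4% over all windows, and among windows within the members' range of G and C content 48.7% held a match. Letters in a window do not show binding, and a window without them says only that these letters are absent there.

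Across the pathway, 12/- endothelial cells held more of every one of the 10 transcripts than the mean of the normal genotypes. The members together made up 0.621%, 0.575% and 0.491% of all FPKM in the 3 12/- libraries and 0.364% in the 12/vg library, against 0.211 to 0.353% in the 12 normal libraries. In bulk RNA, a change in the make-up of the sorted cells and a change of RNA per cell cannot be told apart. The 12/- libraries lay above all 12 normal libraries for 9 of 10 members, the exception being Hk1, and for 1.91% of all genes tested. Against single normal genotypes the 12/- libraries did not overlap for 10 members with +/12 (7.93% of all genes higher without overlap), 10 with +/+ (10.4%), 9 with +/- (7.74%) and 10 with +/vg (10.2%). The fit across all genes was the same for every gene, and its calls for the members are given only as a description, since the members were chosen by these values and calls among them were to be expected. By limma, with Benjamini-Hochberg adjustment over all genes tested, 7 members were called higher against the mean of the normal genotypes (0.720% of all genes), 3 against +/12 (0.209%), 6 against +/- (0.512%), 4 against +/vg (0.408%) and 5 against +/+ (0.540%). Without 12/- replicate 1 they were 3 against the mean, 1 against +/12, 2 against +/-, 1 against +/vg and 2 against +/+, and without 12/- replicate 2 they were 4 against the mean and 2 against +/vg. Against +/+ the count was also 2 without 12/- replicate 3, 3 without +/+ replicate 2 and 2 without +/+ replicate 3, and against +/vg it was 2 without +/vg replicate 1. Nothing is read from these counts.

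**Figure D1:**
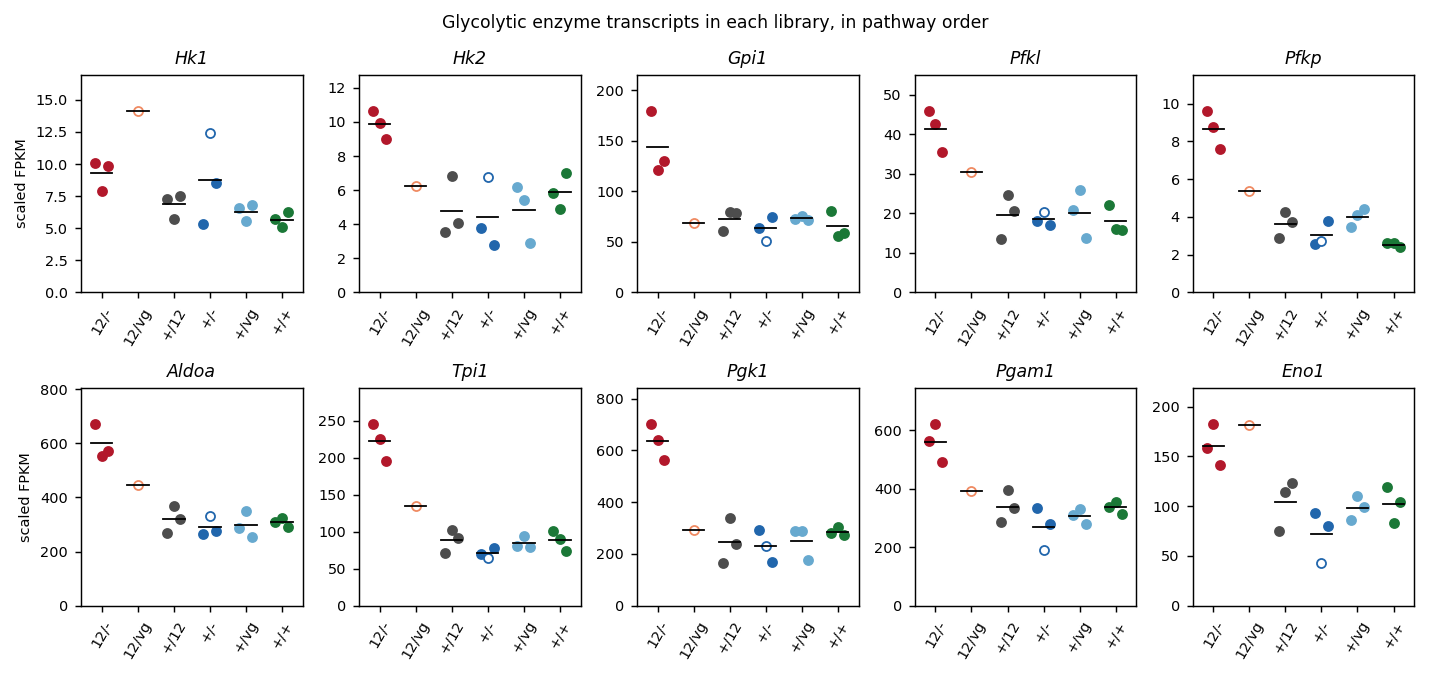
Level of each enzyme transcript (vertical axes, scaled FPKM, starting at 0) in every library of the 6 genotypes, with a bar at each group's mean. Open circles are the 2 shallow libraries, 12/vg replicate 1 and +/- replicate 2. The 12/- libraries lie above every normal library in 9 panels, and in the Hk1 panel the shallow libraries are the highest.

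Glucose is trapped in the cell by hexokinase, of which Hk1 (chr10:61731603-61842656 in mm9) is the housekeeping form and Hk2 (chr6:82675021-82724448) the form of insulin-sensitive and fast-growing cells. Hk1 lay at 10.1, 7.91 and 9.88 scaled FPKM in 12/- libraries and 14.1 in the 12/vg library, against a range of 5.08 to 12.4 in normal libraries. The 12/- values overlap the normal ones, since +/- replicate 2, the shallowest library, held 12.4 and +/- replicate 3 held 8.55. The log2 difference of Hk1 between 12/- and the mean of the normal genotypes was 0.41 ± 0.17 (SE), the smallest of the 10. Hk2 lay at 10.7, 9.95 and 8.99 in 12/-, 6.22 in 12/vg and 2.77 to 6.98 in normal libraries, without overlap between 12/- and normal, a difference of 0.90 ± 0.23. Hk2 made up 51.3%, 55.7% and 47.6% of hexokinase FPKM (Hk1 plus Hk2) in 12/-, 30.5% in 12/vg and 24.5 to 54.4% in normal libraries, so the balance of the 2 isozymes in 12/- lay largely within the normal range. It was 49.0 to 52.8% in +/+, close to that of 12/-.

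Gpi1 (chr7:34986346-35015324) encodes the isomerase that turns glucose-6-phosphate into fructose-6-phosphate. Its level was 180, 121 and 131 scaled FPKM in 12/- and 68.3 in 12/vg, against 51.1 to 80.5 in normal libraries. All 3 12/- libraries stood above the normal range and 12/vg stood within it. The log2 difference between 12/- and the mean of the normal genotypes was 1.05 ± 0.15.

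Phosphofructokinase commits the sugar to glycolysis, and its subunits are encoded by Pfkl (liver type, chr10:77449694-77472541), Pfkp (platelet type, chr13:6579120-6647970) and Pfkm (muscle type, not one of the 10). Pfkl lay at 46.0, 42.7 and 35.5 scaled FPKM in 12/-, 30.4 in 12/vg and 13.5 to 25.9 in normal libraries, a log2 difference between 12/- and the mean of the normal genotypes of 1.10 ± 0.19. Pfkp lay at 9.62, 8.74 and 7.62 in 12/-, 5.38 in 12/vg and 2.40 to 4.40 in normal libraries, a difference of 1.18 ± 0.12. For both subunits 12/- was above 12/vg and 12/vg above every normal library. Pfkm lay at 4.42, 4.03 and 3.48 scaled FPKM in 12/-, 2.77 in 12/vg and 2.80 to 6.25 in normal libraries, and its difference of 0.11 ± 0.18 did not pass the test (limma adjusted p = 0.874). The muscle subunit made up 7.37%, 7.27% and 7.46% of the 3 subunits' FPKM in 12/- and 7.18% in 12/vg, below the 9.36 to 21.3% of normal libraries. Most of that sum is Pfkl and Pfkp, which were chosen by their 12/- values, so a lower Pfkm share follows from the choice. Of Pfkl plus Pfkp, Pfkp held 17.3%, 17.0% and 17.7% in 12/- and 15.0% in 12/vg, within the 10.6 to 24.1% of normal libraries.

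Aldoa (chr7:133938748-133943961), the aldolase that cleaves fructose bisphosphate, had the highest level of the members averaged over the 16 libraries. It lay at 671, 554 and 573 scaled FPKM in 12/-, 447 in 12/vg and 254 to 367 in normal libraries. The order was 12/- over 12/vg over every normal library, and the log2 difference between 12/- and the mean of the normal genotypes was 0.98 ± 0.12. The 3 annotated Aldoa transcripts were quantified, of which NM_007438 took 67.3 to 80.6% of the gene's FPKM in 12/- and 11.8 to 99.5% in +/-. The 11.8% came from the shallow +/- replicate 2, but the 99.5% came from +/- replicate 1, which was not shallow. The split between transcripts was thus less stable than their sum.

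The triose phosphates made by aldolase are interconverted by Tpi1 (chr6:124760610-124764314). Its transcript lay at 246, 225 and 196 scaled FPKM in 12/-, 135 in 12/vg and 64.9 to 102 in normal libraries. The 3 groups stood apart in that order, and at 1.41 ± 0.13 on the log2 scale Tpi1 had the largest difference of the 10 between 12/- and the mean of the normal genotypes, a fold of 2.66 on the log2(scaled FPKM + 1) scale.

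Pgk1 (chrX:103382463-103399038), phosphoglycerate kinase, makes the first ATP of the lower part. It lay at 702, 640 and 565 scaled FPKM in 12/- and 293 in 12/vg, against 164 to 338 in normal libraries, a log2 difference between 12/- and the mean of the normal genotypes of 1.36 ± 0.21. Here 12/vg lay within the normal range. There were 3 low normal libraries, with 164 in +/12 replicate 1, 168 in +/- replicate 3 and 175 in +/vg replicate 3, while the other 9 held 231 to 338. The same 3 libraries were the lowest for Hk2, with 3.54, 2.77 and 2.89 scaled FPKM, and all 3 belong to the low range of library numbers.

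Pgam1 (chr19:41986361-41993155), phosphoglycerate mutase, lay at 564, 621 and 492 scaled FPKM in 12/-, 393 in 12/vg and 191 to 394 in normal libraries. The 12/vg value was just under the highest normal one, and the lowest normal one came from the shallow +/- replicate 2. The log2 difference between 12/- and the mean of the normal genotypes was 0.85 ± 0.15.

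The last of the members, Eno1 (enolase, chr4:149611306-149622982), lay at 158, 182 and 141 scaled FPKM in 12/-, 182 in 12/vg and 42.4 to 123 in normal libraries, with no overlap between 12/- and normal. Its log2 difference from the mean of the normal genotypes, 0.81 ± 0.21, was the second smallest. The deposited tables hold a further record at the same place, chr4:149611433-149622982, a placement of the transcript NM_001025388 under the symbol Gm5506, whose other placement lies on another chromosome. The files mark that record as low-data in all 16 libraries, so it is left out of the Eno1 value, yet it took 33.4 to 73.6% of the FPKM at the locus. It held 393, 249 and 256 scaled FPKM in 12/- and 160 in 12/vg, against 49.9 to 155 in normal libraries. Both records together came to 551, 431 and 397 in 12/- and 342 in 12/vg, against 147 to 270 in normal libraries. With both records the difference was 1.25 ± 0.18, which would place Eno1 above Pfkp and Pfkl, and the order was again 12/- over 12/vg over every normal library. Which of the 2 records the reads belong to cannot be told from the files, so the level of Eno1 is uncertain while its direction was positive both ways.

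**Figure D2:**
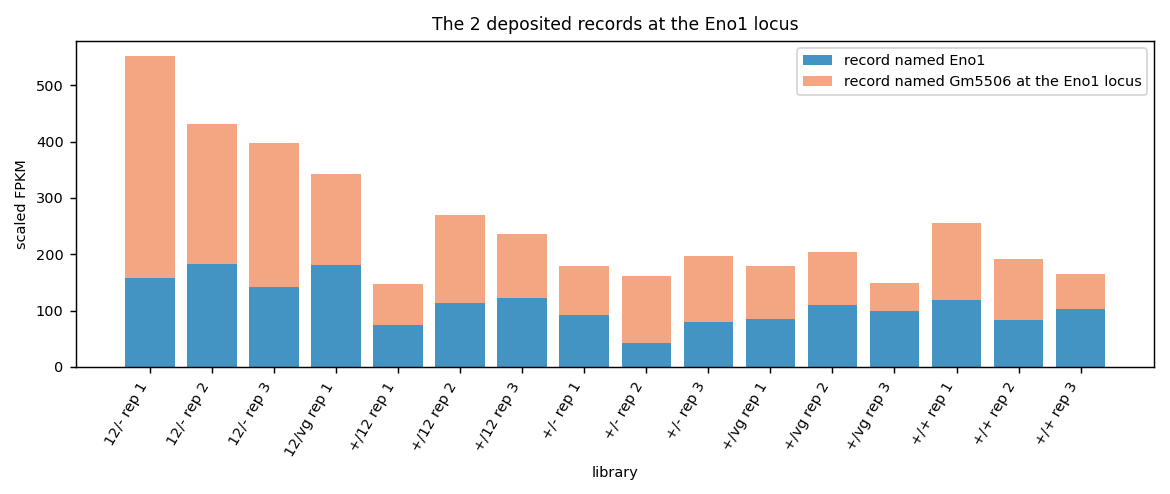
Scaled FPKM (vertical axis) of the 2 records at the Eno1 locus, stacked, in each of the 16 libraries. The Gm5506 record takes 33.4 to 73.6% of each bar, and the 3 12/- bars, 397 to 551 in all, stand above the 12/vg bar at 342 and the normal bars at 147 to 270.

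Against each normal genotype the median log2 difference over the 10 members was 0.95 with +/12, 1.14 with +/-, 0.95 with +/vg and 1.04 with +/+, and the medians over all genes tested were 0.00, 0.00, 0.00 and 0.00. These 4 comparisons share the 12/- libraries and so are not independent of each other. The range over members was 0.39 (Hk1) to 1.42 (Pgk1) against +/12, 0.14 (Hk1) to 1.63 (Tpi1) against +/-, 0.49 (Hk1) to 1.37 (Pgk1) against +/vg, and 0.62 (Hk1) to 1.45 (Pfkp) against +/+. Hk1 was thus the least different member in all 4. Its difference against +/- ran from -0.14 to 0.39 with 1 replicate left out, so its sign there was not stable. Because all 12/- libraries have low file numbers and all +/+ libraries high ones, that range and genotype cannot be told apart in 12/- against +/+. Among libraries of the low range alone the median over members was 0.95 against +/12 (3 libraries), 1.06 against +/- (1 library) and 1.11 against +/vg (1 library).

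**Figure D3:**
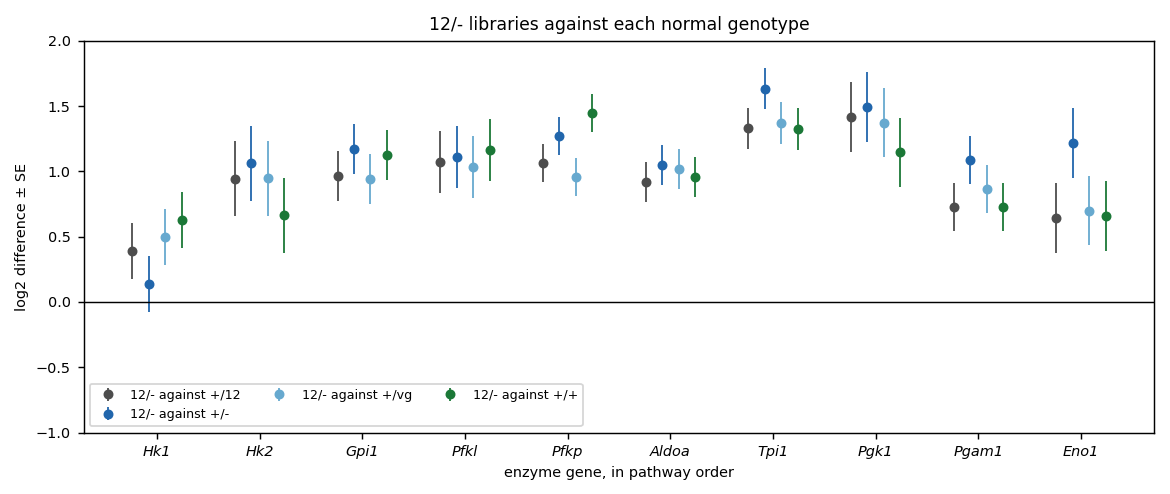
Log2 difference ± SE (vertical axis) of each enzyme between 12/- and each normal genotype, from the model across all libraries, in pathway order. All 40 points lie above 0, from 0.14 for Hk1 against +/- to 1.63 for Tpi1 against +/-.

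The single 12/vg library allows values but no test. It lay above every normal library for 6 of the 10 members (Hk1, Pfkl, Pfkp, Aldoa, Tpi1 and Eno1) and within the normal range for the other 4 (Hk2, Gpi1, Pgk1 and Pgam1), where 13.7% of all genes tested lay above every normal library. It was below all 3 12/- libraries for 8 members, as were 35.3% of all genes, within the 12/- range for Eno1 and above it for Hk1. The mean log2 level over the members was 6.67, 6.53 and 6.41 in 12/- and 6.08 in 12/vg, against 5.30 to 5.82 in normal libraries. Since 12/vg is 1 of the 2 shallow libraries and the other, +/- replicate 2, also had a high Hk1, the part of depth in its Hk1 value was not tested.

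The comparisons among normal genotypes ask whether the loss of a single Notch1 allele, or its exchange for vg or 12, goes with a different level of these enzymes. No member passed limma's test at an adjusted p under 0.05 in any of the 6 comparisons, and neither did any other gene (0% called in each). At an unadjusted p under 0.05, 1 member (Hk1) and 792 genes differed between +/- and +/+, 1 member (Pfkp) and 793 genes between +/vg and +/+, and 1 member (Pfkp) and 567 genes between +/12 and +/+. Between +/12 and +/-, +/vg and +/-, and +/12 and +/vg it was 0 members and 506, 891 and 237 genes. The standard errors, 0.15 to 0.29 on the log2 scale, limit what could be seen, so small differences were not detectable in these comparisons.

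The largest of these differences by test was in Pfkp, which lay at 3.44, 4.09 and 4.40 scaled FPKM in +/vg and at 2.89, 4.27 and 3.75 in +/12, against 2.62, 2.59 and 2.40 in +/+. The libraries of +/vg and of +/12 did not overlap those of +/+, as in 7.30% and 6.60% of all genes tested. The log2 differences were 0.49 ± 0.15 for +/vg (limma adjusted p = 0.439) and 0.38 ± 0.15 for +/12 (limma adjusted p = 0.898), and both comparisons share the +/+ libraries. All +/12 libraries have low file numbers and all +/+ libraries high ones, so number range and genotype cannot be told apart there. Over settings and left-out replicates the +/12 difference ran from 0.092 to 0.50. Among normal libraries Pfkp averaged 3.82 scaled FPKM in the low range and 2.92 in the high range. Tpi1 was the only member whose +/vg libraries lay above all +/- libraries, at 81.4, 94.8 and 79.7 in +/vg against 70.1, 64.9 and 77.8 in +/-, as did 5.87% of all genes, a difference of 0.26 ± 0.16 that did not pass the test.

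Between +/- and +/+ the members ran from -0.56 ± 0.27 (Eno1) to 0.49 ± 0.21 (Hk1), with a median of -0.20, against 0.00 over all genes. Hk1 stood at 5.36, 12.4 and 8.55 scaled FPKM in +/- and at 5.69, 5.08 and 6.23 in +/+ (limma adjusted p = 0.650), with the highest value in the shallow library. Eno1 stood at 92.8, 42.4 and 79.7 in +/- and 119, 82.8 and 104 in +/+ (limma adjusted p = 0.674). With both records at the locus the Eno1 difference was -0.17 ± 0.23. For the remaining pairs the members ran from -0.28 to 0.49 in +/vg against +/+ (median -0.04), from -0.28 to 0.38 in +/12 against +/+ (0.03), from -0.26 to 0.57 in +/12 against +/- (0.17), from -0.36 to 0.52 in +/vg against +/- (0.17) and from -0.11 to 0.14 in +/12 against +/vg (0.02). No pair of normal genotypes passed the adjusted threshold for any of the 10 genes, which does not show that their levels were alike.

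**Figure D4:**
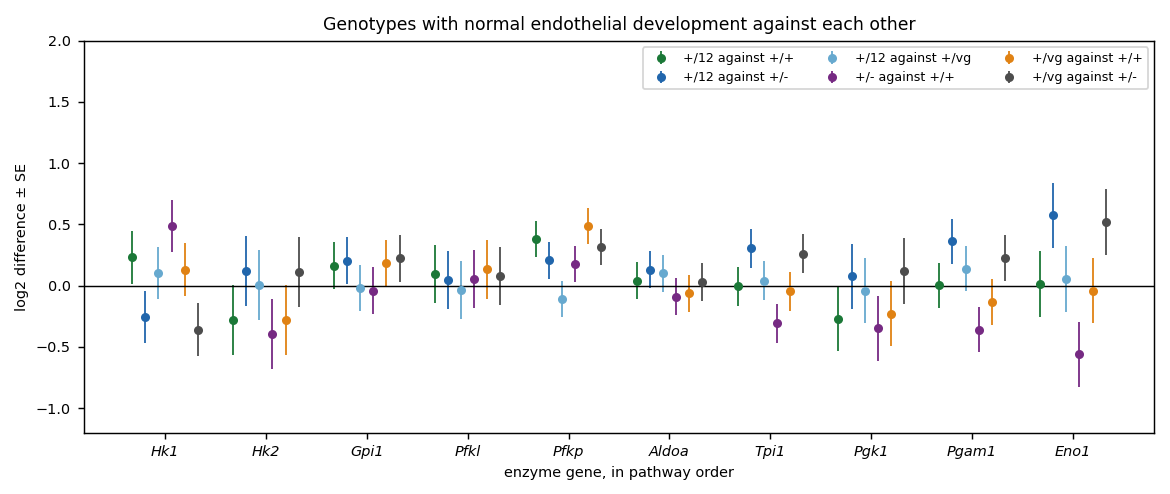
Log2 difference ± SE (vertical axis) of each enzyme in the 6 comparisons among the normal genotypes, on the log2(scaled FPKM + 1) scale. The points lie between -0.56 and 0.57, both Eno1, and none passed the test.

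Averaged over the 16 libraries, the members' levels span a wide range per length of transcript. Aldoa (368 scaled FPKM), Pgam1 (363) and Pgk1 (327) were in the top 1.46%, 1.49% and 1.62% of the genes tested. Tpi1 (113), Eno1 (112) and Gpi1 (82.7) came next, and Pfkl (24.0) followed. Hk1 (7.80), Hk2 (5.98) and Pfkp (4.43) were near or below the middle of all genes. The size of the 12/- difference did not follow that order, as Pfkp, the lowest, and Tpi1 both were above 1.1 on the log2 scale.

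The steps and branches beside the members were read from lists of 24 other glycolysis genes (11 tested), 14 genes of the pentose phosphate pathway (11 tested), 8 of the serine and glycerol phosphate branches (7 tested) and 18 of glycogen metabolism (15 tested). These lists too were drawn up with earlier results of these data known, so their 12/- calls are not independent evidence. Among other glycolysis genes 2 of 11 were called higher in 12/- against the mean of the normal genotypes, as were 0.720% of all genes tested. None was called lower and 9 did not pass. Of the 11 differences 7 were positive (median 0.11, against 0.00 over all genes). Pkm2, pyruvate kinase, which closes the pathway, lay at 616, 512 and 503 scaled FPKM in 12/-, 435 in 12/vg and 231 to 357 in normal libraries. Its log2 difference was 0.90 ± 0.14 (limma adjusted p = 0.0057). Pfkfb3, which makes the fructose-2,6-bisphosphate that activates phosphofructokinase, lay at 12.1, 10.1 and 11.1 in 12/-, 6.90 in 12/vg and 3.69 to 6.51 in normal libraries, a difference of 0.99 ± 0.13 (limma adjusted p = 0.0015). Both also passed against +/-, +/vg and +/+ taken alone, and neither against +/12, at limma adjusted p = 0.067 for Pkm2 and 0.053 for Pfkfb3. Without 12/- replicate 1 the adjusted p of Pkm2 against the mean of the normal genotypes was 0.093, and that of Pfkfb3 was 0.148 with its highest transcript alone. Gapdh, the step between Tpi1 and Pgk1, lay at 1298, 1034 and 973 in 12/-, 1497 in 12/vg and 408 to 1028 in normal libraries. The highest normal value came from +/- replicate 2, so the shallow libraries stood high, and the difference of 0.86 ± 0.23 did not pass (limma adjusted p = 0.124). Without +/- replicate 2 it was 0.93 and passed (limma adjusted p = 0.034). Over 30 settings and left-out replicates the Gapdh difference passed in only 4, with a limma adjusted p of up to 0.644.

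None of the pentose phosphate genes and none of the serine and glycerol phosphate genes passed limma's test in any comparison, and their median log2 differences between 12/- and the mean of the normal genotypes were 0.04 and -0.05. In the glycogen list 2 of 15 were called higher in that comparison (0.720% of all genes), none was called lower and 13 did not pass. Of the 15 differences 10 were positive (median 0.10). Pgm2, a phosphoglucomutase, which links glycogen to glucose-6-phosphate, lay at 34.0, 27.1 and 23.6 scaled FPKM in 12/-, 21.5 in 12/vg and 7.93 to 15.9 in normal libraries, a difference of 1.28 ± 0.22 (limma adjusted p = 0.014). Pygl, the liver glycogen phosphorylase, lay at 5.44, 3.51 and 4.85 in 12/-, 2.73 in 12/vg and 0.550 to 2.60 in normal libraries, a difference of 1.29 ± 0.23 (limma adjusted p = 0.017). Neither passed with library number range as a covariate (limma adjusted p = 0.132 for Pgm2 and 0.155 for Pygl), nor without 12/- replicate 1 (0.176 and 0.196) or replicate 2 (0.082 and 0.052), and Pygl also did not without replicate 3 (0.126). Against single normal genotypes Pgm2 passed with +/vg alone and Pygl with +/- alone.

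**Figure D5:**
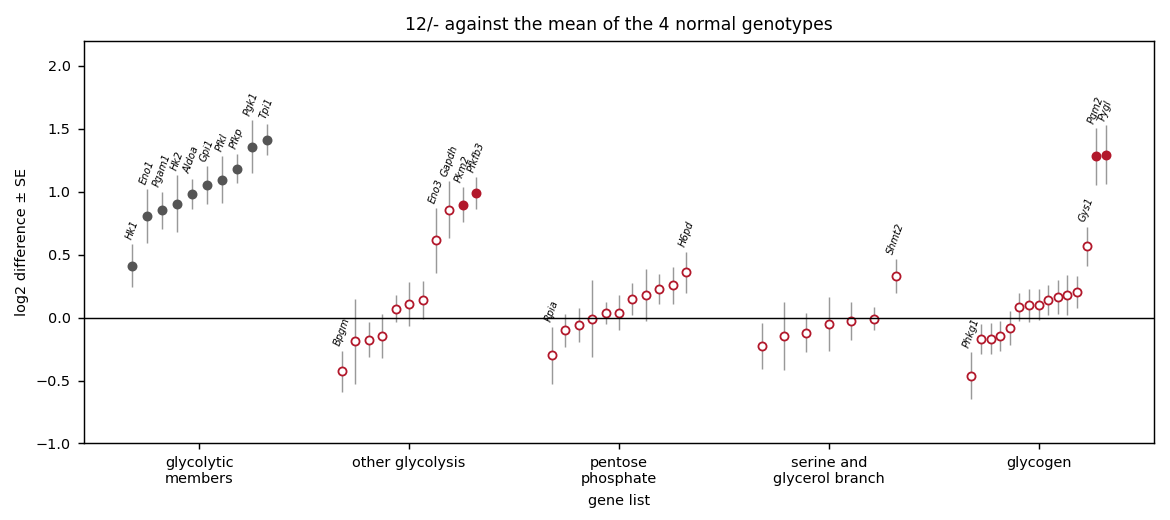
Log2 difference ± SE (vertical axis) between 12/- and the mean of the 4 normal genotypes for the 10 members (grey, shown as a description because they were chosen by these values) and for the tested genes of 4 neighbouring lists, where filled red points passed limma's test and open points did not. Names are given for members and for other genes beyond 0.3. Pkm2, Pfkfb3, Pgm2 and Pygl are the filled points.

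Markers of cell types were read beside the members. The 12 endothelial markers summed to 1088 to 1293 scaled FPKM in 12/-, 1076 in 12/vg and 926 to 1112 in normal libraries. Of these, 1 of 12, Flt1, was called higher in 12/- against the mean of the normal genotypes, as were 0.720% of all genes tested. Its difference was 0.74 ± 0.12 (limma adjusted p = 0.0071). It did not pass with library number range as covariate (limma adjusted p = 0.067), nor without 12/- replicate 1 (0.093) or replicate 2 (0.059). The median log2 difference of the 12 was 0.22. Pecam1, whose product was the sort marker, lay at 72.7 to 89.2 in 12/- and 59.5 in 12/vg, against 46.1 to 71.8 in normal libraries, without overlap between 12/- and normal. Its difference of 0.50 ± 0.13 did not pass (limma adjusted p = 0.107). None of the 4 erythroid, 8 megakaryocyte, 2 macrophage, 6 cardiomyocyte, 6 mesenchyme, 1 neural and 5 epithelial markers tested was called. Their median log2 differences in the same comparison were -0.16, 0.06, 0.31, -0.25, -0.16, 0.34 and 0.62 in that order of lists. The megakaryocyte, macrophage, neural and epithelial medians thus had the sign of the members' differences, the neural one from 1 gene. The summed levels of 12/- and normal libraries overlapped in each of these lists. They were 78.3 to 332 against 91.6 to 244 for erythroid and 383 to 1597 against 265 to 2058 for megakaryocyte genes. For cardiomyocyte genes they were 34.4 to 45.2 against 21.8 to 79.5, and for mesenchyme 18.1 to 31.4 against 21.6 to 33.2. Epithelial sums were 22.3 to 43.4 against 8.34 to 75.1, and neural sums 26.9 to 39.0 against 19.9 to 39.2 (normal median 23.7). Macrophage sums were 6.73 to 9.23 against 3.86 to 9.02. There the 12/- libraries lay above all +/12 (at most 6.64), +/- (6.59) and +/vg (5.80) libraries, with overlap only in +/+ (at most 9.02). For macrophages 8 of 10 markers and for neural cells 9 of 10 were below 1 in all 12/- libraries. The part of these cells, and of the sort marker's level, in the members' values was not tested.

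Within the 12 normal libraries the members varied together only in part. Over the 45 pairs of members the median correlation was 0.25, with 33 pairs above 0, and without the shallow +/- replicate 2 the median was 0.47, with 35 pairs above 0. Hk1 ran against the rest, with 1 of its 9 correlations above 0. These points share library depth and library number range, and they are given as a description. Of 3749 genes of at least 10 FPKM, those most like the mean log2 level of the members over these 12 libraries were Mir673, Rbm17, Skiv2l2, Chd7 and Pkm2, with correlations of 0.88, 0.84, 0.83, 0.83 and 0.82. Mir673 was listed at 0 in several of these libraries, with a median of 0 scaled FPKM. Of the 5, Pkm2 passed limma's test in 12/- against the mean of the normal genotypes, as given above, and the other 4 did not, at adjusted p = 0.600 or more.

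The shares of alternative transcripts were read for Hk1, which has 2. The transcript NM_010438 took 7.49 to 21.1% of Hk1 FPKM in +/+ libraries, against at most 7.35% in 12/-, 5.37% in +/12, 1.96% in +/vg and 0.00% in +/- and 12/vg. The +/+ libraries thus lay above all others for this share, which amounts to little at the low level of Hk1 and was noticed after its values were seen.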

How the data were processed

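Alignment was to mm9 with TopHat2 2.0.9, per the submitters' processing notes. The deposited tables, which per the file names come from cufflinks, give for each annotated transcript an FPKM value and a coverage, used here as signal only to derive aligned bases; the version of cufflinks: not given in the sources used here. Depth of each library limits the precision of its values; read counts were not used here. FPKM values were summed over transcripts of a gene symbol, 211 symbols with a transcript of a status other than OK were left out, and libraries were scaled by median ratios over 8610 genes with at least 1 FPKM in every library. Tests covered the 10550 genes whose mean FPKM reached 1, on log2(scaled FPKM + 1), a scale that understates differences of low genes, with limma 3.58.1 in R 4.3.3 (trended moderation, 16 libraries in 6 groups, 10 residual degrees of freedom, two-sided, Benjamini-Hochberg over all genes, called at 0.05). In data simulated for 12/- against +/12 over 10550 genes, the test recovered 61 of 100 genes with a log2 difference of 1, and of 100 with a difference of 2 it recovered 93. The members and gene lists were chosen with earlier results of these data known. Genes named beside the members are those of the neighbouring lists that were called, the 5 most similar in normal libraries, and a few markers and comparison genes (Gapdh, Pfkm, Notch1, Notch2, Pecam1, Cdh5, Kdr) chosen for their role. Coordinates are those of the files, converted to start at 1. Alternatives covered scaling, pseudocount, filters, moderation, weights, covariates, transcripts and left-out libraries. Summing both records at the Eno1 locus, and the libraries of low number alone, were added after the data were seen. Scripts used Python 3.11.15 and pandas 2.3.3.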

Additional observations from a re-analysis of the deposited data

How the results depend on the processing

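The median log2 difference of the members stayed within its spread in 165 values over settings and 75 with a replicate left out. Its direction was kept in every 12/- comparison. Among normal genotypes it changed sign in +/12 against +/+ (-0.077 to 0.17), +/vg against +/+ (-0.12 to 0.066) and +/12 against +/vg (-0.079 to 0.19). Over 30 settings and left-out replicates each member stayed above 0 in 12/- against the mean of the normal genotypes, at the least 0.34 (Hk1) and at the most 1.74 (Pgk1), although Pfkp gave no value at a mean FPKM of at least 5. Against +/- alone Hk1 changed sign, at -0.14 to 0.39 with 1 replicate left out. Counts of members called in 12/- comparisons, which are a description because these values chose the members, moved beyond 1.5 times as follows. Against +/12 the 3 became 6 without scaling, 5 with robust moderation, 7 with array weights, 0 with the groups fitted alone and 5 without the shallow libraries. Against +/+ the 5 became 2 with number range as covariate and 3 with the highest transcript alone. Against +/- the 6 became 1 with the groups alone. Against +/vg the 4 became 7 with array weights, 1 with the groups alone and 2 with the highest transcript. Leaving out each replicate in turn gave 1 to 4 members against +/12, 2 to 7 against +/-, 1 to 3 against +/vg, 2 to 5 against +/+ and 3 to 9 against the mean, with the lowest count without 12/- replicate 1 in each, shared with other replicates against +/+.

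Counts over all genes moved too. Against +/12, 22 became 34 (robust), 92 (weights), 3 (alone), 35 (number range), 36 (depth) and 41 (without the shallow libraries), and 10 to 30 with a replicate left out. Against +/-, 60 became 5 (alone), 35 (number range) and 36 (highest transcript), and 18 to 161 with one left out. Against +/vg, 47 became 183 (weights), 90 (depth), 95 (without the shallow libraries) and 29 (highest transcript), and 26 to 30 with one left out. Against +/+, 64 became 143 (weights), 41 (alone), 23 (number range), 121 (depth), 115 (without the shallow libraries) and 40 (highest transcript), and 19 to 89 with one left out. Against the mean, 83 became 249 (weights), 47 (number range), 149 (depth) and 139 (without the shallow libraries), and 27 to 139 with one left out. Among normal genotypes, the 0 became 1 under no filter, groups alone, number range or the highest transcript in some pairs, 2 for +/12 against +/vg alone and 3 for +/vg against +/+ with weights. With one left out these counts were 0 to 4 for +/- against +/+, 0 to 2 for +/12 against +/+, 0 to 4 for +/12 against +/-, 0 to 3 for +/12 against +/vg, 0 to 3 for +/vg against +/+ and 0 to 4 for +/vg against +/-. The cause was not tested.

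Several differences among normal genotypes changed sign. That of Eno1 in +/vg against +/- was -0.020 with both records and 0.52 without. That of Hk2 in +/12 against +/+ was 0.47 with number range as covariate and -0.28 without. That of Hk1 in +/12 against +/- was 0.0049 without the shallow libraries, and -0.53 to 0.0043 with 1 replicate left out. That of Pfkp in +/12 against +/vg was -0.21 to 0.014 with 1 replicate left out. The list is not complete. Differences near 0, such as 0.0025 for Pgam1 in +/12 against +/+, can change sign as well. No paired analysis was possible because the replicates were numbered in accession order and the labels tie no libraries across genotypes. The 2 shallow libraries limit what can be read from +/- replicate 2 and 12/vg.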
